A study of Mus musculus with 12 samples.

Results

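Il1rl1 encodes ST2, the receptor for interleukin-33, and was followed with 7 genes that work with it. These were Il1rap, Il18r1, Il18rap, Myd88, Irak1, Irak4 and Sigirr, so that 8 of 35865 genes summed from the transcript files were described, and all 8 passed the count filter that left 13906 genes for testing. Il1rl1 was selected on its measured change between miR-142-5p-EVs and ctrl-EVs, where it had been called in earlier work on these data, and its partners were chosen by their place in the receptor complex and its signalling. Its own change is therefore given as a description without a test, while the partners were tested.

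RNA-Seq of polyadenylated RNA was performed on 12 libraries of RAW 264.7 cells, an established mouse macrophage line. All cells had received extracellular vesicles (EVs) for 48 h, at 3 µg of EV protein per ml and in medium whose serum had been depleted of EVs. By the study's methods the donors of all EVs were MS-1 cells, which are mouse endothelial cells, and electroporation had loaded the EVs with a synthetic miRNA mimic. The study's results instead call the EVs of this experiment transfected, and the sample titles do not name EVs. The first group received miR-142-5p in such EVs, another received miR-183-5p, and a further one received miR-222-3p. A control mimic, named cel-miR-67 in the study's methods, gave the ctrl-EVs. The 3 loaded groups are called miR-EVs, and values listed for them in turn follow the order of these miRNA numbers. Each group held 3 libraries numbered 1 to 3, what a number stands for is not stated, and all groups received EVs, so that no library of untreated cells entered a comparison. Nothing in the labels says that libraries came from separate cultures, and p-values then measure only the spread between these libraries, which may be technical.

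ST2 is a member of the interleukin-1 receptor family. The membrane form binds interleukin-33, recruits the accessory chain encoded by Il1rap, and signals through a Toll/interleukin-1 receptor (TIR) domain to the adaptor MyD88 and the kinases IRAK4 and IRAK1. A shorter, secreted form lacks the membrane and TIR parts and acts as a decoy for interleukin-33. In mice, ST2 is best known on mast cells, type 2 innate lymphoid cells and T helper 2 cells, and it is also found on alternatively activated macrophages. Il1rl1 is on the study's own list of in vitro M2 genes.

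Total depth was 16294611 to 22974853 estimated read pairs per library, and the 3-count floor taken as the smallest detectable signal was 0.131 to 0.184 CPM (counts scaled to a common depth), counting error only. The libraries carried the macrophage markers of a fixed list, 10 of 12 of which were tested, with a summed level of 2108 to 3121 TPM (shares of all transcripts, corrected for length), whereas Mrc1 and Mertk stayed below the filter with at most 8 counts. Summed TPM of the other fixed lists were 15.3 to 34.3 for 12 endothelial markers, 5.39 to 16.8 for 10 fibroblast markers, 3.29 to 8.19 for 10 lymphoid markers and 0.922 to 2.92 for 10 mast cell markers. Of the endothelial markers 6 of 12 were tested, with Egfl7 the most abundant at 10.1 to 26.2 TPM, while Cldn5 was at 0 in all libraries and Kdr reached 3 counts. In bulk RNA, fewer cells of a type and less RNA per cell cannot be told apart.

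The long and soluble forms of ST2 come from 1 gene, and the point where they part is shown because it defines which reads can separate them. Il1rl1 (ENSMUSG00000026069) lies on the plus strand at chr1:40429570-40465415 (GRCm38, GENCODE vM21), and it is followed by Il18r1 after 136 bases and, beyond Il18r1, by Il18rap after 14507 bases. Of its 5 transcript models, Il1rl1-201 and Il1rl1-202 each hold 1701 coding bases and were taken as long, whereas Il1rl1-203 and Il1rl1-205 hold 1011 and were taken as soluble. All 4 share coding exon sequence up to chr1:40446675, where the long transcripts splice to the exon starting at chr1:40450075 and the soluble ones read on into the intron. The 15 bases on either side are given from the GENCODE transcripts, lower case for the shared exon and capitals for what follows, all of it coding.
Il1rl1-201 and Il1rl1-202 (long): gaaggaaacaaccaaTTGATCACCGAAGCA
Il1rl1-203 and Il1rl1-205 (soluble): gaaggaaacaaccaaGTAAGGAGTGTCCCT
After this point 716 coding bases remain in the long form and 26 in the soluble form, excluding the stop codon.

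**Figure D1:**
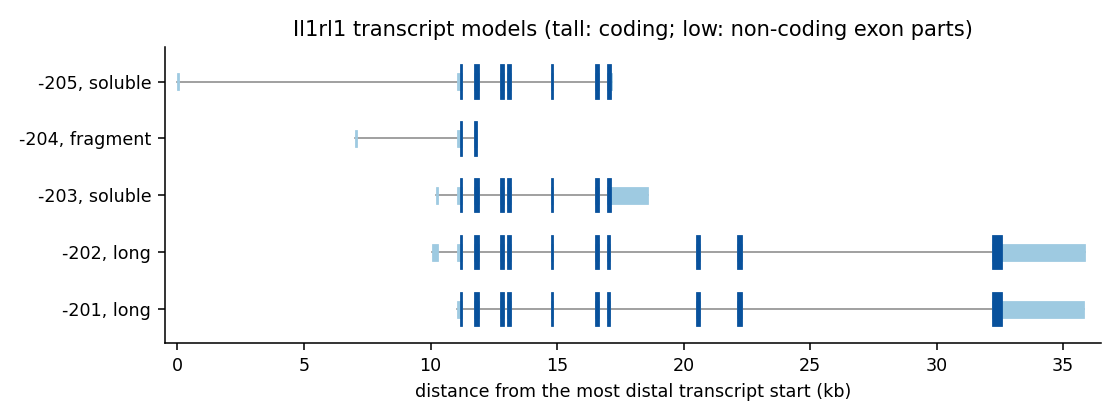
Exon structure of the 5 Il1rl1 transcript models against the distance in kb from the most distal start, with tall boxes for coding and low boxes for non-coding parts of exons. The 2 long models run to the 3′ end of the gene, the 2 soluble models end after the shared exon, and Il1rl1-204 is a 3-exon fragment of 375 bases.

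The soluble models differ in first exon, Il1rl1-205 starting at the distal start and Il1rl1-203, like Il1rl1-202, near the proximal one, so both promoters are shown (RefSeq, GRCm38.p6, 250 bases before to 50 after the start, plus strand). Capitals mark matches on either strand to GATAAG, a letter string of GATA factor sites, TGACGT, the core of CRE-like sites, and CCGCCC, a GC box, and TATAAA was searched as well. GATA1 and GATA2 are known for driving the distal promoter in mast cells.
Il1rl1 distal promoter, chr1:40429320-40429619: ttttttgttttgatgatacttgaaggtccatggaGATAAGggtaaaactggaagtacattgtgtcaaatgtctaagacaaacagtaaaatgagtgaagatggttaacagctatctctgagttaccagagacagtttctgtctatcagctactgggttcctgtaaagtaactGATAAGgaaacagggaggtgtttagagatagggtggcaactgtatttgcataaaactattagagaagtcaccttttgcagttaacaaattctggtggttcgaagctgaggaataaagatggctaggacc
Il1rl1 proximal promoter, chr1:40439379-40439678: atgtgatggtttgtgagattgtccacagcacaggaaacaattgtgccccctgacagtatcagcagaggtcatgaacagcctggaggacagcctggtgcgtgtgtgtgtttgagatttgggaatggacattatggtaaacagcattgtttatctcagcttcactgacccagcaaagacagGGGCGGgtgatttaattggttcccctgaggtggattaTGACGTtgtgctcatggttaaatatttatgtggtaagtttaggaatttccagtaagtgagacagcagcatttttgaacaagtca
GATAAG occurred in the distal window and in 7.44% of 32851 promoters of the same length, TGACGT in the proximal window and in 7.51%, and CCGCCC in the proximal window and in 35.7%. TATAAA was in neither window and in 13.6% of all. Il1rl1-205, the model with the distal start, was above 0 in 2 libraries only, with 0.337 estimated counts in ctrl-EVs 1 and 12.1 in miR-142-5p-EVs 1. Of the GATA factors on the fixed lists, Gata1 reached 5 counts in a library and Gata2 reached 2, both below the filter, whereas Gata3 was tested, with 54.6 to 128 counts.

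Il1rl1 was a low-abundance transcript in these macrophages, from 0.294 to 2.69 TPM across the 12 libraries with a median of 0.69. Estimated counts were 37.3, 27.6 and 33.1 in ctrl-EVs 1 to 3, and 106, 31.7 and 55.6 in miR-142-5p-EVs 1 to 3. They were 82.1, 21.2 and 41.7 in miR-183-5p-EVs, whereas miR-222-3p-EVs had 57.0, 44.8 and 49.9. Every library was above the 3-count floor. Scaled by depth only, the level was 1.91, 1.61 and 1.62 CPM in ctrl-EVs. It was 4.85, 1.94 and 2.93 CPM in miR-142-5p-EVs. With the cargo miR-183-5p it was 3.58, 1.12 and 1.87 CPM, and miR-222-3p-EVs had 2.65, 2.59 and 2.44 CPM. The libraries with miR-142-5p and those with miR-222-3p were all above all ctrl-EV libraries on this scale, replicate 2 of miR-142-5p-EVs by the smallest margin, whereas the miR-183-5p-EV libraries spread on both sides. How many of all genes separate in this way in CPM was not counted.

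Normalized counts divide the estimated counts by size factors and by a length offset, the mean length of the transcripts that a library's TPM values assign to the gene. On this scale Il1rl1 was 34.3, 26.7 and 24.4 in ctrl-EVs and 150.0, 56.0 and 83.0 in miR-142-5p-EVs. It was 57.2, 19.4 and 28.2 in miR-183-5p-EVs, whereas miR-222-3p-EVs had 77.2, 43.7 and 36.7. In ascending order the group means were those of ctrl-EVs, then miR-183-5p-EVs (34.9 ± 19.8, SD, n = 3), followed by miR-222-3p-EVs (52.5 ± 21.7) and lastly miR-142-5p-EVs, and each group overlapped its neighbour in this order. The first and the third miR-EV group did not overlap ctrl-EVs, which was so in the higher direction for 1.48% and 1.49% of all tested genes. DESeq2 log2 fold changes of the 3 miR-EV groups in turn were 1.77 ± 0.52 (SE), 0.30 ± 0.52 and 0.87 ± 0.52, and the 9 miR-EV libraries together gave 1.10 ± 0.51, all against the same 3 ctrl-EV libraries. Compared number by number, Il1rl1 exceeded its ctrl-EV library in 3 of 3, 2 of 3 and 3 of 3 numbers.

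Split by transcript model, most Il1rl1 read pairs in each library were assigned to the long form. The long models held 82.7%, 95.2% and 100% of the estimated counts in ctrl-EVs 1 to 3 and 82.2%, 93.6% and 96.5% in miR-142-5p-EVs. They held 94.1%, 100% and 96.6% in miR-183-5p-EVs, whereas miR-222-3p-EVs had 92.3%, 100% and 96.8%. The group means, from 90.8% ± 7.57 to 96.9% ± 2.97 (SD, n = 3), lay within the spread between libraries. Shares of counts favour longer models, and the long ones have 5053 and 5302 bases against 2661 and 1216 for the soluble ones. In TPM the long form held 68.3% in ctrl-EVs 1 and 41.6% in miR-142-5p-EVs 1. In the latter library Il1rl1-201 had 1.12 TPM, the soluble Il1rl1-203 and Il1rl1-205 had 0.116 and 0.745, and the fragment Il1rl1-204 had 0.712. Soluble-form counts exceeded the 3-count floor in 3 libraries, all with number 1: 6.44 in ctrl-EVs 1, 16.7 in miR-142-5p-EVs 1 and 4.86 in miR-183-5p-EVs 1. In the other libraries the soluble form was not detectable at this depth, with 0 to 2.53 counts. The long form alone was 1.58, 1.53 and 1.62 CPM in ctrl-EVs, and 3.98, 1.82 and 2.83 CPM in miR-142-5p-EVs. It was 2.45, 2.59 and 2.36 CPM in miR-222-3p-EVs, so that these groups again did not overlap ctrl-EVs, and 3.36, 1.12 and 1.80 CPM in miR-183-5p-EVs. The share of all genes or transcripts without such overlap was not counted for this scale either. As a ratio of group means to ctrl-EVs the long form was 1.83, 1.33 and 1.57 in the 3 miR-EV groups in turn.

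The split among models within the long form was not stable between libraries. Il1rl1-201 is contained in Il1rl1-202, with 0 of its 31-base words found only in it against 168 in Il1rl1-202, so the 2 differ for the reads only by the proximal first exon and the last bases. Il1rl1-202 held 30.9, 17.7 and 20.5 estimated counts in ctrl-EVs and 0 in all 3 miR-142-5p-EV libraries, where Il1rl1-201 held 86.8, 29.7 and 53.7. Il1rl1-202 was 51.3, 0 and 17.5 in miR-183-5p-EVs, whereas miR-222-3p-EVs had 0, 0 and 17.1. It was thus at 0 in all miR-142-5p-EV libraries and above 0 in all ctrl-EV libraries, with the other 2 groups mixed. How many of all transcripts separate in this way was not counted, and Il1rl1 was selected on this comparison. The pattern is therefore only a description.

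The fragment model Il1rl1-204, which begins at its own first exon and holds 58 words found nowhere else in the gene's other models, carried a large part of the TPM on very few read pairs. It was above 0 in 4 libraries, with 2.14, 0.866 and 1.96 estimated counts in miR-142-5p-EVs 1 to 3 and 1.84 in miR-222-3p-EVs 1, all under the 3-count floor and all in libraries where Il1rl1-202 was at 0. These were 2.03% to 3.52% of the gene's estimated counts in those libraries. Because the effective length of the fragment was 182 to 189 bases there, against 4845 to 4854 for Il1rl1-201, the same counts made up 26.4%, 41.9% and 48.4% of the Il1rl1 TPM in miR-142-5p-EVs 1 to 3 and 45.1% in miR-222-3p-EVs 1. The mean transcript length behind the offset was 2455, 2792 and 2593 bases in miR-142-5p-EVs against 4210, 4779 and 5006 in ctrl-EVs. It was 2638 bases in miR-222-3p-EVs 1 and 4717 to 4849 in the remaining libraries of the other groups.

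The ratio of group means to ctrl-EVs for miR-142-5p-EVs was accordingly 1.90 in CPM, 3.54 in TPM and 3.38 in normalized counts, while the mean length offset was 0.56 times that of ctrl-EVs. Without the length offset the log2 fold change was 0.93 instead of 1.77, and with Il1rl1-204 left out of the gene, an alternative chosen after seeing the data, it was 1.11. For miR-222-3p-EVs the same changes gave 0.60 and 0.52 instead of 0.87, and for miR-183-5p-EVs, which had no counts on the fragment, 0.37 and 0.30 instead of 0.30. With the replicate number as a block the miR-142-5p-EV value was 1.68, and 0.98 with Il1rl1-204 left out.

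**Figure D2:**
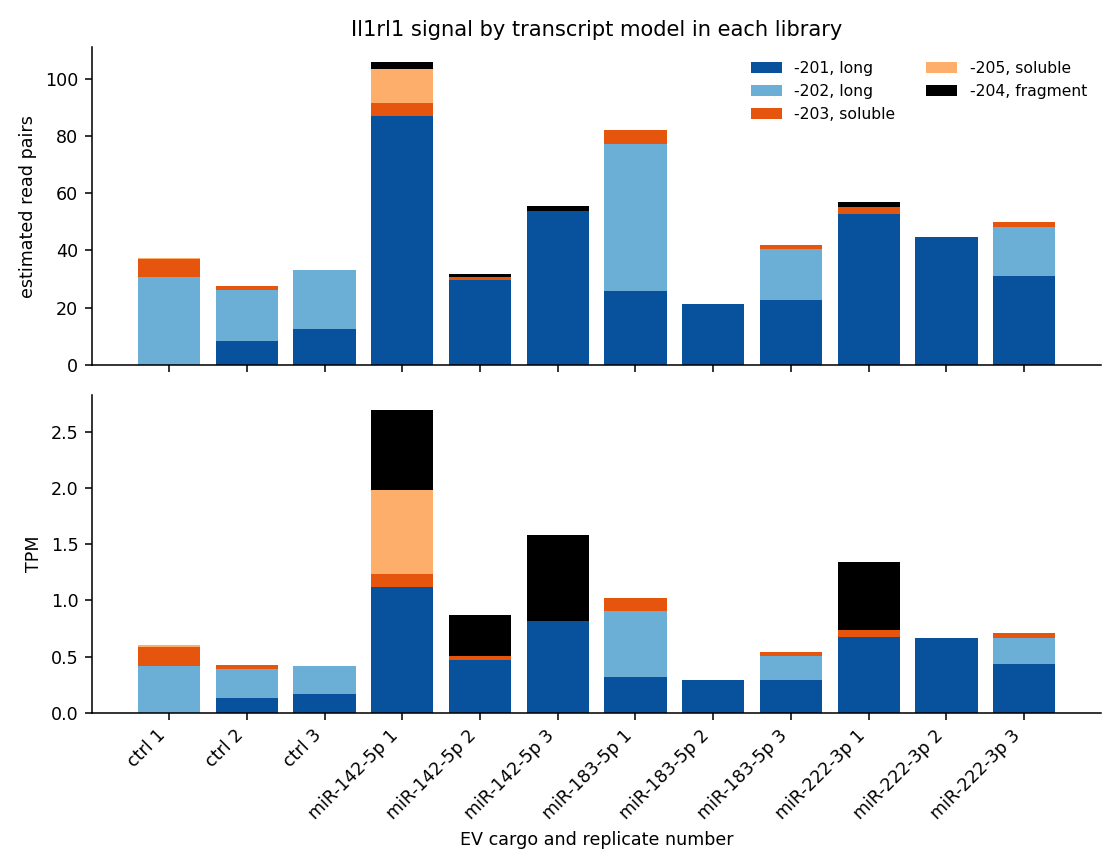
Il1rl1 signal in each of the 12 libraries, stacked by transcript model, as estimated read pairs (top) and as TPM (bottom). The fragment Il1rl1-204 is at most 2.14 read pairs in the top panel and 26.4% to 48.4% of the bar in the bottom panel for the 3 miR-142-5p-EV libraries and miR-222-3p-EVs 1.

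Markers of mast and lymphoid cells, the cell types best known for ST2, were low beside the macrophage list in this macrophage line. As sums over 10 genes each they were not low beside Il1rl1, a single gene at 0.294 to 2.69 TPM. The summed TPM of the mast cell list was 1.17 to 1.79 in ctrl-EVs, and 1.70 to 2.92, 0.922 to 1.88 and 1.43 to 2.43 in the 3 miR-EV groups in turn. Kit had at most 2 counts in a library, Mcpt4, Tpsb2 and Mrgprb2 had 0, and 2 of the 10 genes, Hdc and Cpa3, passed the filter. Tpsab1, below the filter, reached 17.0 counts in a library. The lymphoid list was 4.10 to 6.63 in ctrl-EVs and 3.64 to 8.19 TPM in miR-142-5p-EVs, so the groups overlapped. Of this list 5 genes were tested, with Icos the most abundant at 0.430 to 4.31 TPM and Il7r at up to 70.6 counts. The study's methods describe no mast cells or lymphoid cells in these cultures, so the levels were not read as a sign of such cells. Any relation of these markers to the Il1rl1 levels was not tested.

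The 7 partners differed widely in level, which was compared between genes in TPM because it accounts for length. Irak1 (mean 70.8 TPM over the 12 libraries), Il18rap (50.6), Myd88 (42.1) and Sigirr (37.3) were the most abundant. Irak4 followed at 13.1 and Il1rap at 3.91 TPM. Il18r1, at 0.467 TPM, was the only partner below the mean of 0.931 TPM of Il1rl1. The interleukin-18 receptor was therefore unequally represented: Il18rap, its accessory chain, ranged from 36.9 to 73.5 TPM and Il18r1, its ligand-binding chain, from 0.262 to 0.647 TPM, although the 2 genes are neighbours on chromosome 1. The coding transcript Il18rap-201 alone was at 15.2 to 42.6 TPM, a median of 53.1% of the gene's TPM, and the rest was in retained-intron transcripts.

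**Figure D3:**
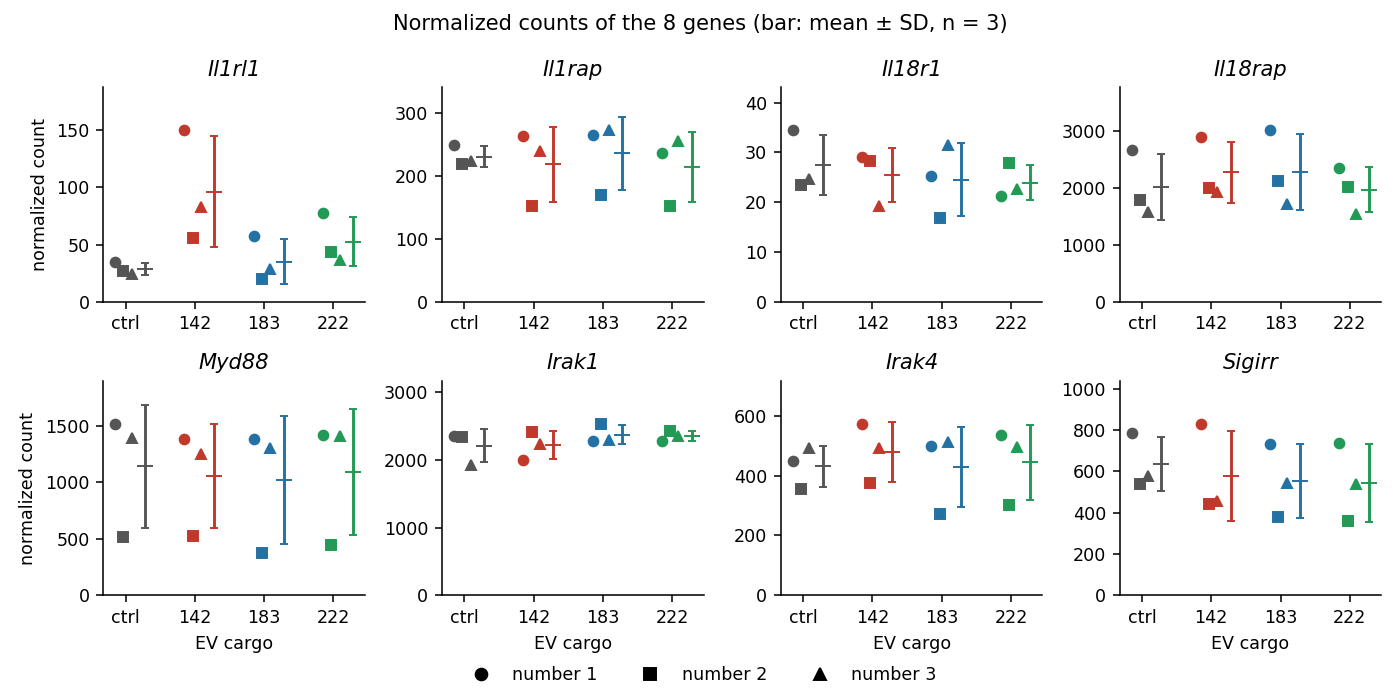
Normalized counts of the 8 genes in the 12 libraries (y axis from 0) by EV cargo, with 1 marker shape for each replicate number and the mean ± SD of 3 libraries beside them. Il1rl1 lies above ctrl-EVs in the first and the third miR-EV group, and in no panel for the other 7 genes does a miR-EV group lie entirely above or entirely below ctrl-EVs.

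None of the partners was called by DESeq2 in any comparison with ctrl-EVs, singly or with the 9 miR-EV libraries together: of 28 tests 0 had an adjusted p under 0.05 and 0 an unadjusted p under 0.05, the smallest being 0.424. The calls over all tested genes were few as well, 0.00719% (1 of 13906) for miR-142-5p-EVs and 0% for each of the other 3 comparisons. With the replicate block 0.0575%, 0.41%, 0.0647% and 1.6% of genes were called in these 4 comparisons. Of all 13906 genes 815, 1409, 908 and 1896 then had an unadjusted p under 0.05. Of the 28 partner tests with the block 0 were called and 1 had an unadjusted p under 0.05. DESeq2 gave no adjusted p for 6 of these 28 tests with the block, 3 of them for Il18r1 and 1 each for Il1rap, Irak4 and Sigirr with miR-222-3p-EVs, and these could not be called. Between the miR-EV groups 0 of 21 partner tests were called without the block and 0 of 21 with it. Over all genes 0.0144% were called between miR-142-5p-EVs and the group with miR-183-5p, 0.00719% between the first group and miR-222-3p-EVs, and 0% for the remaining pair, and with the block these shares were 0.0144%, 0.0216% and 0%. By overlap alone, the normalized counts of 0 of the 7 partners lay entirely above or below ctrl-EVs in a miR-EV group. Of all tested genes 1.48%, 1.74% and 1.49% lay entirely above in the 3 groups in turn, and 1.22%, 1.46% and 1.2% entirely below.

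Il1rap, the chain shared by the receptors for interleukin-1, interleukin-33 and the interleukin-36 family, had normalized counts of 249, 218 and 224 in ctrl-EVs and 264, 151 and 240 in miR-142-5p-EVs. It had 265, 169 and 273 in miR-183-5p-EVs, whereas miR-222-3p-EVs had 236, 151 and 256. The groups overlapped, and the number 2 library was the lowest in each. The log2 fold changes against ctrl-EVs were -0.07 ± 0.30 (SE), 0.04 ± 0.30 and -0.10 ± 0.30 in the 3 miR-EV groups in turn, with a 95% interval of -0.65 to 0.51 for the first.

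Il18r1 had normalized counts of 34.5, 23.5 and 24.7 in ctrl-EVs and 29.0, 28.2 and 19.3 in miR-142-5p-EVs. It had 25.2, 16.8 and 31.5 in miR-183-5p-EVs, whereas miR-222-3p-EVs had 21.3, 27.9 and 22.6. With 12.8 to 41.1 estimated counts per library the interval was wide, from -0.90 to 0.64 on the log2 scale for miR-142-5p-EVs. 

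Il18rap had normalized counts of 2665, 1785 and 1577 in ctrl-EVs and 2885, 1997 and 1923 in miR-142-5p-EVs. It had 3012, 2114 and 1708 in miR-183-5p-EVs, whereas miR-222-3p-EVs had 2342, 2015 and 1545. In each group the number 1 library was the highest. Compared number by number, Il18rap exceeded its ctrl-EV library in 3 of 3, 3 of 3 and 1 of 3 numbers in the miR-EV groups in turn. The log2 fold changes were 0.18 ± 0.30, 0.18 ± 0.30 and -0.03 ± 0.30. With the block the value for miR-142-5p-EVs was 0.19 ± 0.10 (adjusted p = 0.843, DESeq2) and the excess of this group over miR-222-3p-EVs was 0.20 ± 0.10 (unadjusted p = 0.0414, adjusted p = 1.0).

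Among the signalling genes, Myd88, the adaptor of nearly all receptors of this family, showed the widest spread between libraries. Its normalized counts were 1516, 518 and 1387 in ctrl-EVs and 1384, 524 and 1252 in miR-142-5p-EVs. They were 1384, 371 and 1302 in miR-183-5p-EVs, whereas miR-222-3p-EVs had 1418, 445 and 1406. The number 2 library of each group was 371 to 524 and the 8 libraries of the other numbers were 1252 to 1516, which is 2.97-fold between the means. The log2 fold changes were -0.11 ± 0.60, -0.16 ± 0.60 and -0.07 ± 0.60 without the block and -0.09 ± 0.12, -0.22 ± 0.12 and -0.09 ± 0.12 with it (adjusted p = 0.980, 0.454 and 0.911, DESeq2).

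Irak4, the kinase that MyD88 engages first, was 447, 355 and 491 in ctrl-EVs and 573, 374 and 493 in miR-142-5p-EVs. It was 498, 273 and 513 in miR-183-5p-EVs, whereas miR-222-3p-EVs had 535, 303 and 495. Irak1, the kinase acting next, was the most even of the 8 genes, from 1928 to 2530 normalized counts over the 12 libraries. This was a 1.31-fold range against 7.73-fold for Il1rl1, on a scale that carries the length offset. In CPM, without the offset, Il1rl1 ran from 1.12 to 4.85 and Irak1 from 98.3 to 136. The log2 fold changes of Irak1 were 0.01 ± 0.13, 0.10 ± 0.13 and 0.09 ± 0.13. The 95% interval of the pooled difference ran from -0.11 to 0.25.

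Sigirr, a family member known to restrain signalling by these receptors, was 787, 541 and 579 in ctrl-EVs and 831, 445 and 459 in miR-142-5p-EVs. It was 735, 380 and 544 in miR-183-5p-EVs, whereas miR-222-3p-EVs had 739, 360 and 538. Compared number by number, the level was below its ctrl-EV library in 2 of 3, 3 of 3 and 3 of 3 numbers in the miR-EV groups in turn, but in TPM in 2 of 3 for each. The pooled log2 fold change was -0.18 ± 0.27 without the block and -0.22 ± 0.10 with it, where the unadjusted p was 0.0347 and the adjusted p was 0.263 (DESeq2).

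**Figure D4:**
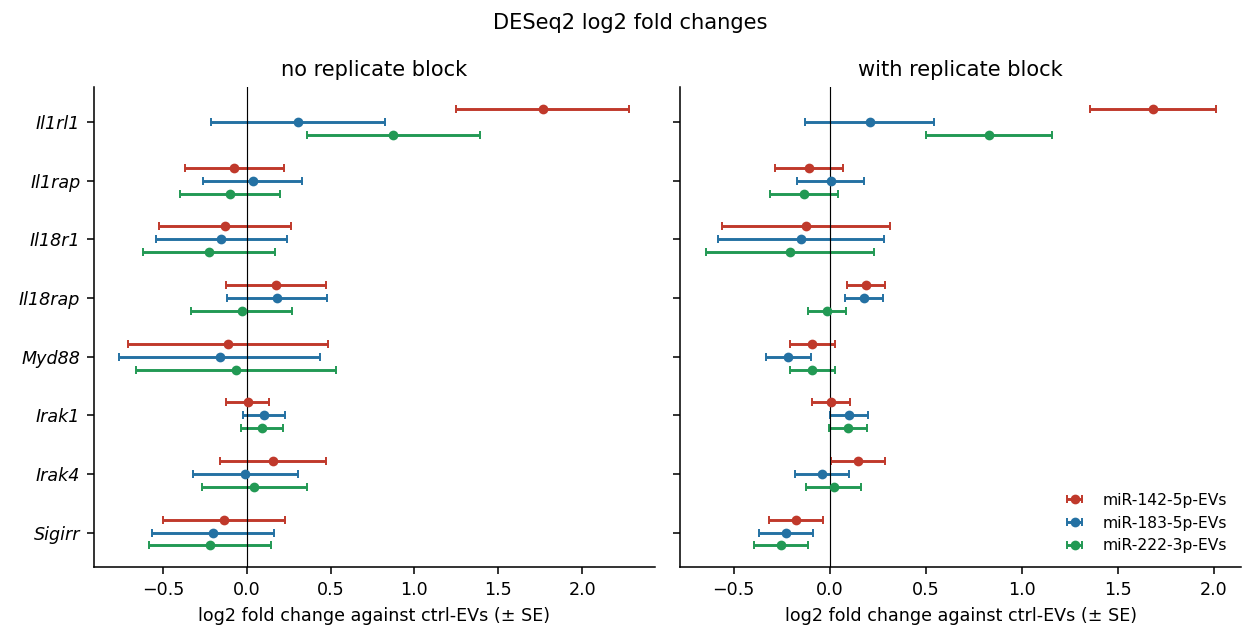
DESeq2 log2 fold changes ± SE against ctrl-EVs for the 8 genes and the 3 miR-EV groups, without (left) and with (right) the replicate number as a block. Il1rl1 lies at 1.77 and 1.68 for miR-142-5p-EVs, and the partners lie between -0.26 and 0.19 in both panels.

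The replicate number separated the libraries more than the EV cargo did for several members. All 4 number 2 libraries were below all 8 others for Il1rap, Myd88 and Irak4, that is for 3 of the 8 genes, against 21% of all tested genes (2926 of 13906). The ratio of the number 2 mean to that of the others was 0.34 for Myd88, 0.59 for Il1rl1, 0.64 for Irak4, 0.66 for Sigirr, 0.69 for Il1rap, 0.90 for Il18rap, 0.93 for Il18r1 and 1.09 for Irak1. The mitochondrial share of counts was 4.88% to 5.41% in number 2 and 3.48% to 4.62% in the others, and depth was 16294611 to 18927524 against 18990222 to 22974853 read pairs. What the number stands for is not stated, and the part of depth or of the mitochondrial share was not tested. Across the 12 libraries log2 normalized counts of Myd88 and Irak4 had a Pearson r of 0.95, and of Il1rap and Myd88 of 0.87. After subtracting the mean of each number the values were 0.59 and 0.14. These are descriptions over libraries that share numbers and depth.

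**Figure D5:**
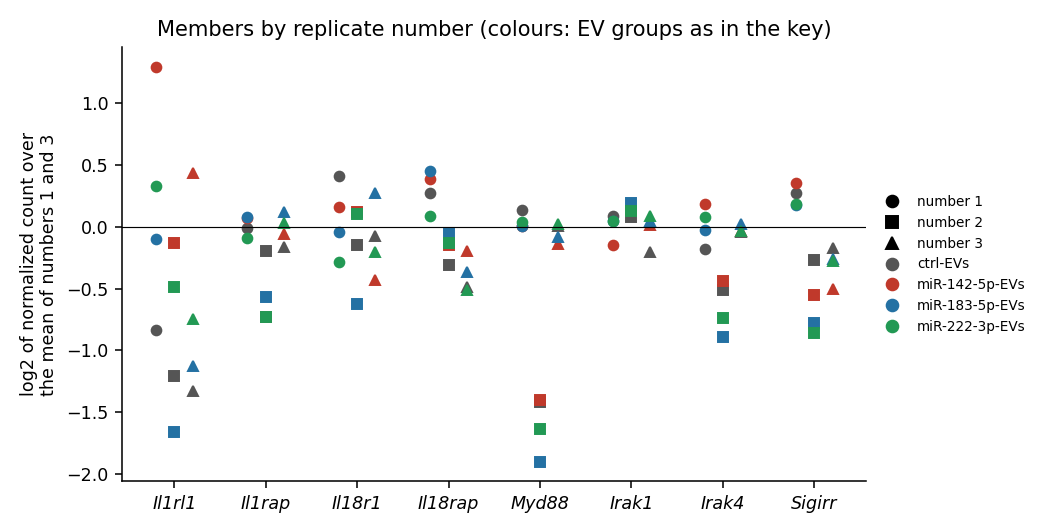
Normalized count of each of the 8 genes over its mean in numbers 1 and 3, on a log2 scale, by replicate number (marker) and EV group (colour). The 4 number 2 squares of Myd88 lie below all other points of that gene, while 3 of the 4 squares of Irak1 lie above all other points of that gene.

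Transcript usage of the partners was compared between the 9 miR-EV libraries and the 3 ctrl-EV libraries for the 6 genes with at least 2 measured transcripts. The main transcript, Il1rap-201, held 89.6% ± 6.55 (SD, n = 9) of estimated counts with miR-EVs and 91.7% ± 5.31 (n = 3) in ctrl-EVs. Il18rap-201 held 81.9% ± 5.51 against 84.5% ± 6.08, and the remainder was in 3 retained-intron transcripts. Myd88-201 held 96.5% ± 1.50 against 95.2% ± 3.08, Irak4-201 78.6% ± 5.40 against 80.0% ± 7.34, Irak1-206 46.3% ± 4.77 against 45.5% ± 12.7, and Sigirr-206 38.8% ± 11.1 against 34.9% ± 7.96. In two-sided exact permutation tests the adjusted p was 0.914 to 0.927 over the 6 genes. For 1 gene 0.00455 was the smallest p possible on 1 side, and a two-sided p cannot go as low. Permuted within replicate numbers, the smallest were p = 0.0313 for Il18rap, whose share differed by -2.58 percentage points, and p = 0.0469 for Sigirr, and both had an adjusted exact p of 0.141. Il18r1-202 was the main transcript of Il18r1, with a median of 100% of counts. As with Il1rl1, a short model weighed more in TPM than in counts for Sigirr, Il18rap, Irak1 and Irak4. Sigirr-204, of 363 bases, held a median of 5.48% of counts and 32.8% of TPM. Il18rap-203, of 622 bases, held a median of 4.21% of counts and 29.0% of TPM. For Irak1-215, of 644 bases, these medians were 3.91% and 19.8%, and for Irak4-203, of 1159 bases, 8.41% and 20.6%.

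The mature forms of the 3 miRNAs whose mimics were delivered are shown with their seed (bases 2 to 8) in capitals, because a match to the seed in a 3′ UTR is how a direct target is commonly recognised. The sequences are those of the endogenous miRNAs from RefSeq (GRCm38.p6), from which a mimic can differ in length, and the 3 seeds differ.
miR-142-5p (chr11:87756867-87756887, plus strand): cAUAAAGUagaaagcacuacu
miR-183-5p (chr6:30169711-30169732, minus strand): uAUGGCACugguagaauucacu
miR-222-3p (chrX:19146901-19146923, minus strand): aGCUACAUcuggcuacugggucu
The letters complementary to each seed, in order ACTTTAT, then the string GTGCCAT, then lastly ATGTAGC, were searched on the transcript strand in the 3′ UTR of the main transcript of each of the 8 genes, 533 to 3230 bases long. Of the 24 pairs of gene and miRNA 2 held a site, each 1 site, shown with its capitals.
Il1rl1-201, miR-183-5p site, chr1:40465340-40465346, UTR base 3174 of 3230: aaaataattGTGCCATtgactcctt
Il1rap-201, miR-142-5p site, chr16:26716726-26716732, UTR base 1661 of 2679: tgagtttctACTTTATtccctgagg
Beside these sites, Il1rl1 had a log2 fold change of 0.30 ± 0.52 with miR-183-5p-EVs, and Il1rap had -0.07 ± 0.30 with miR-142-5p-EVs (unadjusted p = 0.803, DESeq2). A match is a description and does not show that a site is used.

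The wider pathway was read from fixed lists, in which 0 genes were called higher or lower in any of the 4 comparisons with ctrl-EVs, without or with the block, although DESeq2 gave no adjusted p for some low genes. Of 12 interleukin-1 family ligands and antagonists 6 were tested, and for miR-142-5p-EVs their median log2 fold change was -0.01 beside 0.01 over all tested genes. Il18 was the most abundant at 30.9 TPM on average, followed by Il1rn, the interleukin-1 receptor antagonist, at 7.85 TPM. Il33, the ligand of ST2, had at most 2 counts in a library, under the 3-count floor in all 12, and was not detectable at this depth. Of 5 other receptors of the family 4 were tested, with Il1r1, the signalling receptor of interleukin-1, the most abundant at 3.75 TPM. Its pooled log2 fold change was -0.03 ± 0.57 without the block and -0.38 ± 0.24 with it (adjusted p = 0.420 with the block, DESeq2).

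All 20 genes of the list downstream of MyD88 were tested, with median log2 fold changes of 0.01, 0.02 and 0.04 in the 3 miR-EV groups in turn and 0.02 for all miR-EVs, each beside 0.01 over all tested genes. Tab2, which links TRAF6 to the kinase TAK1, had a log2 fold change of 0.01 ± 0.06 in the pooled comparison with the block, which was within its error. Mapk14, the kinase p38 alpha, had 0.26 ± 0.12 for miR-142-5p-EVs (adjusted p = 0.803, DESeq2) and 0.14 ± 0.10 in the pooled comparison, both with the block. With the block 1, 3 and 1 of the 20 genes had an unadjusted p under 0.05 in the 3 miR-EV groups in turn. Of all 13906 tested genes 815, 1409 and 908 did so in the same groups with the block. Irak2 and Irak3, which the study had also placed on its macrophage lists, were at 92.5 and 8.38 TPM on average. Of 5 other TIR adaptors and related genes, all tested, Pik3ap1, an adaptor of PI3-kinase, had the value nearest to a call, 0.16 ± 0.07 (adjusted p = 0.258). Of 12 genes tied to ST2 expression or turnover 10 were tested. With the block 0, 2 and 1 of them had an unadjusted p under 0.05 in the 3 miR-EV groups in turn. The counts over all tested genes are those given above. The most abundant were Trim33, with a pooled log2 fold change of -0.0041 ± 0.087, Spi1, encoding the macrophage factor PU.1, with -0.06 ± 0.12, and Jun, with -0.10 ± 0.12. Gata3, the lineage factor of T helper 2 cells, named after its values were seen, had the lowest values of this list. With the block they were -1.17 ± 0.40 for miR-183-5p-EVs (unadjusted p = 0.00308, adjusted p = 0.148, DESeq2) and -0.90 ± 0.33 in the pooled comparison, where DESeq2 gave an unadjusted p of 0.00601 and no adjusted p. Gata3 ranged from 54.6 to 128 estimated counts but from 1.39 to 6.94 TPM over the libraries. Its fold changes carry the length offset, as those of Il1rl1 do, and the part of the offset in them was not tested. Tmed1, which encodes a cargo receptor of the early secretory pathway, had -0.21 ± 0.09 in the pooled comparison (adjusted p = 0.185, DESeq2), and it too was named after its values were seen.

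The genes whose levels followed Il1rl1 most closely across the 12 libraries, among the 10857 that averaged 50 normalized counts or more, were Egf (Pearson r = 0.83), Ift122 (0.83), Ccdc171 (0.82), Tmem181c-ps (0.81) and Gpatch11 (0.80). Egf averaged 63.0 normalized counts in ctrl-EVs and 111, 73.5 and 81.9 in the 3 miR-EV groups in turn, the same order of groups as Il1rl1. Egf was picked for its likeness over these same libraries, so the shared order is largely built into the choice. The normalized counts of Il1rl1 used here also carry the length offset described above. After subtracting the mean of each replicate number the 5 closest were Harbi1, Nmrk1, 2900026A02Rik, Tgfb3 and Arrb1, with r from 0.87 to 0.91, and 0 of the first 5 were among them, Egf standing at rank 10 with r = 0.85. These values describe likeness over libraries of shared numbers and were not tested.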

How the data were processed

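The authors prepared stranded mRNA libraries and assigned read pairs to Ensembl mouse transcripts with Salmon. The labels list the human build GRCh38, although the transcript identifiers are of mouse. Each deposited file lists 4 values per transcript: its length, its effective length, an estimated count (unscaled, with decimals) and TPM. Of 118783 transcripts 116622 (98.2%) matched GENCODE vM21 by identifier, and the others held 0.605% to 0.707% of counts.

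Gene sums of the estimated counts were rounded, and the 13906 genes reaching 10 counts in 3 or more libraries entered 1 DESeq2 model (version 1.42.0, R 4.3.3) of all 12 libraries with two-sided Wald tests and a TPM-weighted length offset as tximport makes it. Genes were called at a Benjamini-Hochberg adjusted p under 0.05 over all genes. edgeR 4.0.16, TMM factors, no filter, no offset, the compared groups alone, a replicate block and leaving out each library were alternatives. In data simulated for miR-142-5p-EVs with ctrl-EVs over 13906 genes, DESeq2 recovered 98 of 100 genes changed by 1 on the log2 scale and 100 of 100 changed by 2, with 29 unchanged genes called besides. The simulated counts held no shared effect of the replicate number, and only genes above a minimum mean count were changed. These rates therefore do not carry over to the real fits without the block, or to genes as low as Il18r1.

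Groups and numbers came from the sample titles. Deviations from the group means correlated between same-numbered libraries in all 18 pairs (r from 0.409 to 0.797, mean 0.608), and the numbers were therefore read as pairing the libraries, with the pairing taken from the titles and this check. Transcript shares were compared by exact permutation (SciPy 1.17.1). A promoter for Sigirr was not used here. Named genes were the 8 members, genes of the fixed lists that were called or otherwise up to 3 of each list with the highest mean count, and the 5 genes most like Il1rl1; 1 gene that this rule names is not reported here. Other genes named for their role, at or near 0 or on the study's lists, were chosen after their values were seen. The members and lists were chosen with earlier results of these data known.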

Additional observations from a re-analysis of the deposited data

Results flagged for a closer look

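Among the 9 miR-EV libraries, Il1rl1 in miR-142-5p-EVs 1 stood apart from the others at 150.0 normalized counts, by Dixon's criterion, the gap to the nearest library being 0.513 of the range, just past the critical value. The next highest was 83.0, in miR-142-5p-EVs 3. The 9 libraries carry 3 different cargoes, and this criterion marks about 1 in 20 groups by chance, so with 8 genes examined such a mark carries little weight. Il1rl1 was also selected on its miR-142-5p-EV values, so this rate does not hold for it and the mark is only a description. The same library held the highest estimated count, 106, and 12.1 of it on the distal soluble model Il1rl1-205. Without the length offset it was the highest at 4.85 CPM, against 3.58 CPM in miR-183-5p-EVs 1, but the gap was 0.341 of the range and did not meet the criterion.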

How the results depend on the processing

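Calls across all genes depended on the replicate block: 1, 0, 0 and 0 genes in the 3 miR-EV groups in turn and in all miR-EVs without it (73, 138, 101 and 231 at an unadjusted p under 0.05) became 8, 57, 9 and 223 with it, 4, 32, 6 and 153 when the offset was dropped as well, and 19, 52, 20 and 206 when the count filter was. edgeR gave 0 in all 4, with the block as well, and the compared groups alone gave 0 for miR-142-5p-EVs. Leaving out 1 library gave 0 to 1, 0 to 1, 0 and 0 to 3 genes: 0 for miR-142-5p-EVs without any 1 of the ctrl-EV or miR-183-5p-EV libraries, 1 for miR-183-5p-EVs without ctrl-EVs 2 or miR-142-5p-EVs 3, and 3 for all miR-EVs without ctrl-EVs 2. The block changed no call among the partners, with or without edgeR.

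The Il1rl1 value for miR-142-5p-EVs was 0.93 without the length offset, 0.87 when the block was added to that and 0.98 with the block and Il1rl1-204 left out. Leaving out 1 library gave 1.30 to 2.04, -0.25 to 0.59 and 0.50 to 1.08 in the miR-EV groups in turn and 0.80 to 1.25 for all miR-EVs. The low ends were 1.30 without miR-142-5p-EVs 1, -0.25 without miR-183-5p-EVs 1 and 0.50 without miR-222-3p-EVs 1, and the second group also had 0.59 without its library 2 and 0.46 and 0.20 without ctrl-EVs 1 and 3. The long-form share in TPM was 49.0% in miR-142-5p-EVs and 81.3% in the third group, the rest being the soluble form and the fragment Il1rl1-204 together. Of the 5 genes most like Il1rl1 0 remained in the top 5 after the pairing was taken out.

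No partner passed the threshold under any alternative (with the block, 6 of 28 tests had no adjusted p). Signs reversed with the block and no offset for Il1rap (miR-183-5p-EVs, -0.026), Il18rap (miR-222-3p-EVs, 0.0017) and Irak1 (miR-142-5p-EVs, -0.018), with the block and no filter for Il1rap (miR-183-5p-EVs, -0.0013), with TMM factors for Irak1 (-0.0020) and without the offset for Irak1 (-0.017, both miR-142-5p-EVs). Leaving out 1 library, 46 of 336 partner values changed sign, and the ranges were for Il1rap -0.23 to 0.13 (miR-142-5p-EVs), -0.083 to 0.22 (miR-183-5p-EVs), -0.25 to 0.093 (miR-222-3p-EVs), -0.086 to 0.014 (all miR-EVs), for Il18r1 -0.25 to 0.071 (miR-142-5p-EVs), -0.37 to 0.046 (miR-183-5p-EVs), -0.26 to 0.030 (all miR-EVs), for Il18rap -0.035 to 0.43 (miR-142-5p-EVs), -0.072 to 0.44 (miR-183-5p-EVs), -0.18 to 0.23 (miR-222-3p-EVs), -0.036 to 0.37 (all miR-EVs), for Myd88 -0.46 to 0.21 (miR-142-5p-EVs), -0.51 to 0.24 (miR-183-5p-EVs), -0.41 to 0.31 (miR-222-3p-EVs), -0.46 to 0.15 (all miR-EVs), for Irak1 -0.084 to 0.077 (miR-142-5p-EVs), -0.023 to 0.12 (all miR-EVs), for Irak4 -0.16 to 0.23 (miR-183-5p-EVs), -0.11 to 0.26 (miR-222-3p-EVs), -0.055 to 0.17 (all miR-EVs), for Sigirr -0.49 to 0.046 (miR-142-5p-EVs), -0.46 to 0.011 (miR-183-5p-EVs), -0.50 to 0.0067 (miR-222-3p-EVs). The Irak1-206 share differed by -1.75 points in TPM, and leaving out 1 library the main-transcript differences ran -5.05 to 0.121 for Il1rap, -3.06 to 8.15 for Irak1, -4.98 to 2.36 for Irak4, -0.409 to 2.56 for Myd88. The causes were not tested. Depth limits Il1rl1, Il18r1 and the soluble form, which rest on few read pairs.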
